A study of Homo sapiens with 6 samples.

Results

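IRS4, an adaptor of the insulin and IGF receptors, and GRB10, an adaptor that restrains them, were at 28.4% and 39.1% of their control level in lung cancer cells treated with AVJ16. The 9 genes described here are IRS1, IRS2, IRS4, GRB10, INSR, IGF1R, IGF2R, IGF2 and IGFBP3, and were chosen by name for the strong falls of IRS4 and GRB10 in these same libraries. Of the 9, 8 had a row in the counts table of 22004 genes, and IGF2 was not analysed here. The cells were H1299, a human line derived from a non-small cell lung carcinoma and labelled as wild type, grown in RPMI with serum. They were treated for 48 h with 1.5 µM AVJ16, described by the study as a small-molecule inhibitor of the RNA-binding protein IGF2BP1, or with DMSO, its solvent. Each group held 3 libraries of poly(A) RNA, with the letters A to C for DMSO and D to F for AVJ16. The comparison asked which steady-state mRNA levels differ between treated and control cells, at a single dose and time.

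Insulin and the IGFs bind receptor tyrosine kinases at the cell surface, INSR and IGF1R, which phosphorylate IRS proteins. The phosphorylated IRS proteins recruit PI3 kinase, which activates AKT, and AKT in turn restrains FOXO transcription factors. GRB10 binds the activated receptors and dampens them. IGF2R carries no kinase and takes IGF2 to the lysosome for degradation, and IGFBP3 binds IGFs outside the cell. IGF2BP1 takes its name from IGF2 mRNA and is known to bind many mRNAs, mostly in their 3′ UTRs.

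Levels are given in counts per 1000000 counts (CPM), scaled by the TMM method, which corrects for differences in library make-up. The cell markers later in this paragraph are CPM of all counts of a library, without this scaling. Fold changes come from a fit of edgeR's quasi-likelihood model to 16330 genes, with a Benjamini-Hochberg adjusted p of 0.05 as the threshold. The libraries held 19353830 to 30253721 counts. Mitochondrial genes took 11.9% of the counts in D and 5.13% to 6.66% in the other 5 libraries, so D stood apart. As for the labelled epithelial-like lung cells, the 5 epithelial markers summed to 788 to 878 CPM with DMSO and 680 to 1061 CPM with AVJ16, nearly all from KRT8 and KRT18, while EPCAM and CDH1 stood at 1.63 CPM or less. The mesenchymal markers VIM, CDH2 and FN1 summed to 5768 to 6435 CPM with DMSO and 7115 to 7395 CPM with AVJ16, nearly all from VIM. FN1 was lower, at 37.9 to 39.2 CPM with DMSO and 18.4 to 25.8 CPM with AVJ16, and CDH2 stood at 48.6 to 52.9 CPM and 34.3 to 49.3 CPM. Of the 5 lung markers, NKX2-1, SFTPB and NAPSA summed to 1.98 CPM or less and SFTPC and SCGB1A1 had no row. The 5 markers of endothelial cells (PECAM1, VWF) and fibroblasts (COL1A1, PDGFRA, DCN), mostly COL1A1, summed to 5.61 to 7.49 CPM with DMSO and 3.47 to 4.71 CPM with AVJ16, which did not overlap. The blood markers PTPRC, CD3E and HBB and the liver marker ALB had no row. The part of these differences in the results was not tested.

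The let-7 family of miRNAs is known to repress INSR, IGF1R and IRS2, and IGF2BP1 is known to protect some let-7 targets, so the match to the let-7 seed is shown first. The mature miRNA, from RefSeq (GRCh38.p14), has its seed, bases 2 to 8, in capitals.
hsa-let-7a-5p: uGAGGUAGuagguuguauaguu
The seed pairs with CTACCTC. This motif was searched on the transcript strand of the 3′ UTR of each gene's canonical GENCODE 44 transcript. It was found in 4 of the 8 genes and stands in capitals in the 5 sites, each given with bases before and after it.
IRS2 site: aaaacgaccacagtcCTACCTCagttca
INSR site: ttttttcagcacagtCTACCTCagtgta
IGF1R first site: cccccaaacatttatCTACCTCactctt
IGF1R second site: tttgccagagtttgtCTACCTCtgggta
IGF2R site: cgtcagccccttcttCTACCTCttccac
These sites begin at base 453 of the IRS2 3′ UTR, 2393 of INSR, 2619 and 6661 of IGF1R and 6200 of IGF2R. Of all 13168 tested genes with a 3′ UTR of at least 30 bases, 11.2% held the motif. Long UTRs hold it more often, and among genes whose UTR length lay within 20% of each gene's own it was found in 19.1% for IRS2, 24.2% for INSR, 33.2% for IGF1R and 30.7% for IGF2R. The 3′ UTRs of IRS1, IRS4, GRB10 and IGFBP3 held no match, where 25%, 13.6%, 14.9% and 10.4% of genes of like UTR length did. The 4 genes with a site had log2 fold changes of -0.05 for IRS2, -0.21 for INSR, -0.64 for IGF1R and -0.39 for IGF2R. Genes without a site were at -1.82 for IRS4, -1.36 for GRB10, -0.34 for IRS1 and 1.18 for IGFBP3. Whether the sites bear on these values was not tested. A match is a description of the sequence, and miRNA levels were not analysed here.

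Of the IRS adaptors, IRS4 had by far the largest difference. IRS4, which is known to signal strongly even with little receptor input, stood at 117, 131 and 129 CPM in A, B and C, and at 42.0, 28.5 and 36.3 CPM in D, E and F. Every AVJ16 library was below every DMSO library, and E was the lowest. The means were 126 ± 7.82 and 35.6 ± 6.79 CPM (SD, n = 3 each), a log2 fold change of -1.82 (SE 0.15). Ranked from the lowest fold change, IRS4 was number 6 of the 11220 genes whose mean reached 5 CPM. In bulk RNA, fewer cells that express a gene and less of its mRNA per cell cannot be told apart.

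IRS1, the main IRS protein of muscle and many cultured cells, stood at 36.6, 36.7 and 40.8 CPM with DMSO and at 32.8, 25.9 and 31.7 CPM with AVJ16. The groups did not overlap, and E was again the lowest. The log2 fold change was -0.34 (SE 0.12), which did not pass the threshold across all genes. IRS2, prominent in liver and pancreatic beta cells, stood at 5.96, 7.55 and 6.39 CPM with DMSO and at 5.85, 6.57 and 6.87 CPM with AVJ16. Its groups overlapped, with a log2 fold change of -0.05 (SE 0.15).

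GRB10 stood at 32.9, 34.0 and 34.1 CPM with DMSO and at 13.5, 14.0 and 12.0 CPM with AVJ16. Both groups were tight and far apart, at 33.7 ± 0.63 and 13.1 ± 1.02 CPM (SD, n = 3 each). The log2 fold change was -1.36 (SE 0.11), number 48 from the lowest among the 11220 genes. Unlike the IRS genes, GRB10 was lowest in F and highest in E.

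**Figure D1:**
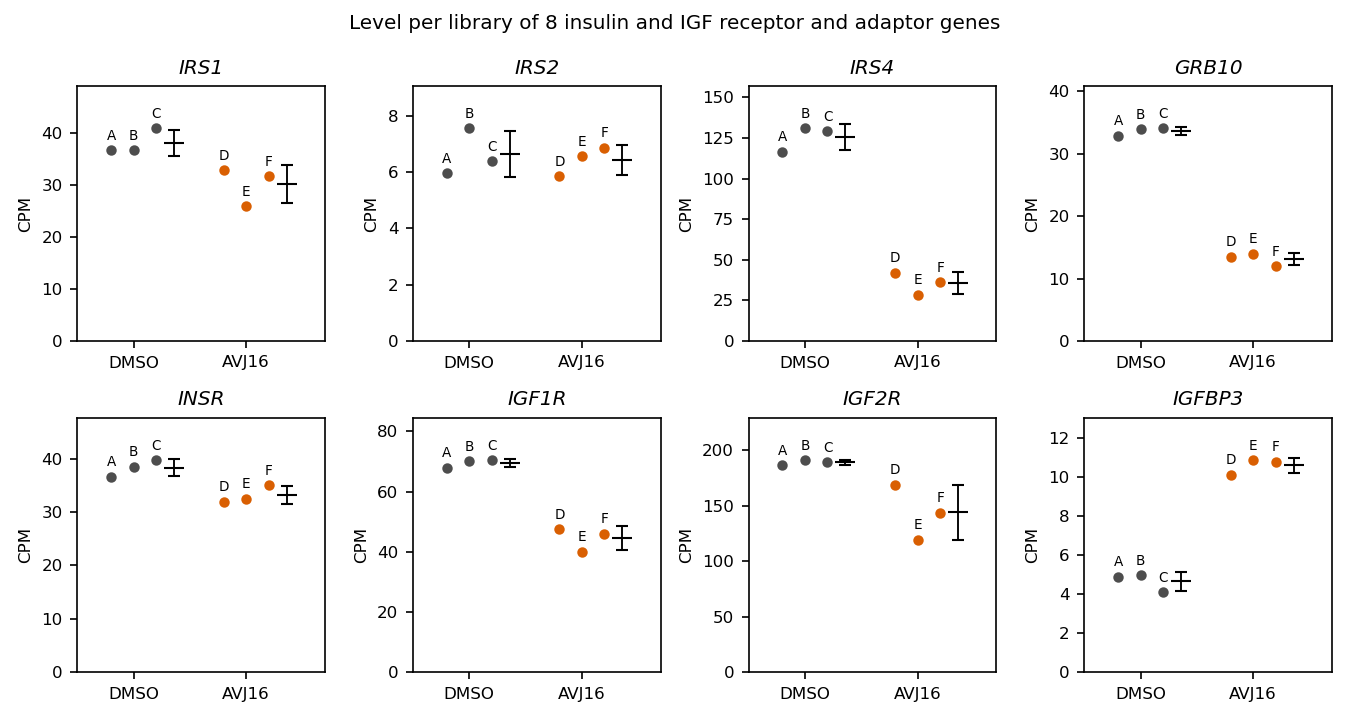
Level of each gene in CPM (y axis, from 0) in the 3 DMSO libraries (A, B, C, grey) and the 3 AVJ16 libraries (D, E, F, orange), with the mean and SD of each group as a black bar beside the points. IRS4 lies at 117 to 131 CPM with DMSO and at 28.5 to 42.0 CPM with AVJ16, GRB10 and IGFBP3 are also widely separated, and IRS2 overlaps between the groups.

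Of the receptors, IGF1R differed most. IGF1R, the receptor of IGF1 and IGF2, stood at 68.0, 70.0 and 70.5 CPM with DMSO and at 47.6, 40.1 and 46.0 CPM with AVJ16. The groups did not overlap, and the log2 fold change was -0.64 (SE 0.10). INSR, the insulin receptor, stood at 36.6, 38.5 and 39.7 CPM with DMSO and at 31.9, 32.5 and 35.0 CPM with AVJ16. The groups did not overlap but lay close together, with a log2 fold change of -0.21 (SE 0.10) that did not pass the threshold.

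IGF2R, the mannose 6-phosphate receptor that clears IGF2, was the most abundant of the 8 in CPM. It stood at 187, 191 and 189 CPM with DMSO and at 169, 119 and 144 CPM with AVJ16. The DMSO libraries were nearly equal, whereas the AVJ16 libraries were spread, from E at the low end to D at the high end. The means were 189 ± 2.26 and 144 ± 24.7 CPM (SD, n = 3 each) and the log2 fold change was -0.39 (SE 0.13), which did not pass the threshold.

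IGFBP3 was the only one of the 8 to stand higher with AVJ16. IGFBP3, which carries IGFs in blood and limits their access to IGF1R, stood at 4.91, 4.99 and 4.10 CPM with DMSO and at 10.1, 10.9 and 10.8 CPM with AVJ16. These rest on 84 to 150 counts per DMSO library and 222 to 322 per AVJ16 library. The groups did not overlap, the log2 fold change was 1.18 (SE 0.13), and the gene was number 21 from the highest among the 11220.

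Across the 8 genes, 4 were past the threshold, IRS4, GRB10 and IGF1R lower and IGFBP3 higher. Over all 16330 genes, 14.6% were past it, 8.77% lower and 5.87% higher with AVJ16. The groups of 3 libraries did not overlap for 7 of the 8 genes, beside 37.1% of all genes. The median log2 fold change was -0.36 over the 8 genes and -0.01 over all genes tested. Because the genes were chosen for falls in this contrast, nothing is read from these counts and no p is given for them. Without D, IRS1 and IGF2R were also past the threshold, 6 of the 8, beside 37.2% of the 16785 genes then tested. With libraries scaled by their size alone, the same 6 were past it, beside 16.8% of the 16330 genes, while the median of all genes moved to -0.12 on the log2 scale. Within the AVJ16 group, IRS1, IRS4, IGF1R and IGF2R were each lowest in E and highest in D, and IRS2, INSR and IGFBP3 were lowest in D. The part of the high mitochondrial share of D in this order was not tested.

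**Figure D2:**
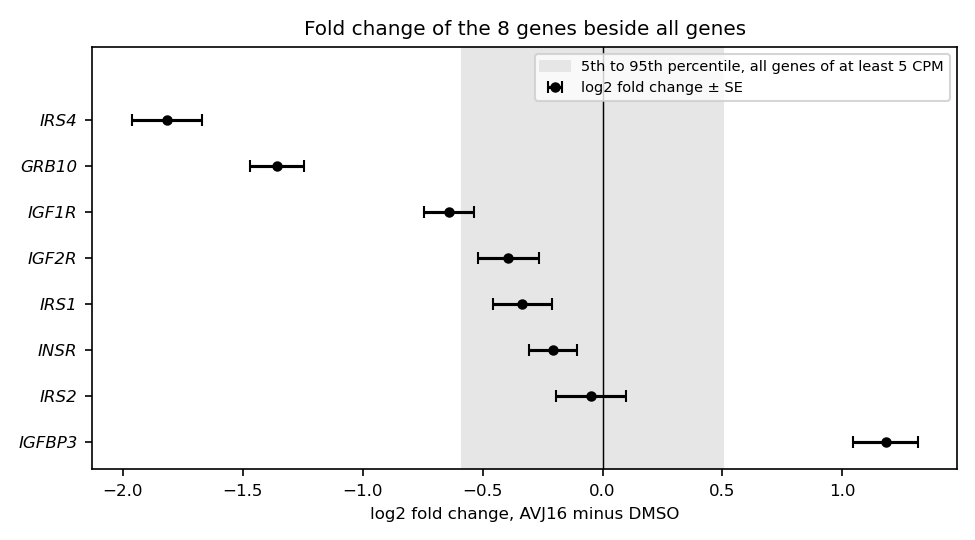
Log2 fold change of each gene, AVJ16 minus DMSO (x axis), with its SE from the fit to 3 libraries per group, beside the range from the 5th to the 95th percentile of the 11220 genes of 5 CPM or more (grey). IRS4 (-1.82), GRB10 (-1.36) and IGF1R (-0.64) lie below the grey range, which runs from -0.59 to 0.50, and IGFBP3 (1.18) lies above it.

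To compare levels between genes, CPM were divided by the length in kb of the canonical transcript. With DMSO, IRS4 was then the most abundant of the 8, at 19.1 ± 1.19 CPM per kb (SD, n = 3), above IGF2R at 13.4 ± 0.16. These 2 neighbours in the order lay further apart than their spread. Below them came GRB10 at 6.15 ± 0.12, IGF1R at 5.68 ± 0.11, INSR at 4.04 ± 0.17, IRS1 at 3.90 ± 0.25, IGFBP3 at 1.79 ± 0.19 and IRS2 at 0.81 ± 0.10 CPM per kb. INSR and IRS1 did not differ beyond their spread. With AVJ16, IGF2R led at 10.2 ± 1.76 CPM per kb and IRS4 followed at 5.42 ± 1.03. IGFBP3 at 4.06 ± 0.16, IGF1R at 3.64 ± 0.32, INSR at 3.50 ± 0.18 and IRS1 at 3.09 ± 0.38 then lay close together, with GRB10 at 2.40 ± 0.19 and IRS2 at 0.79 ± 0.06 below them. IGF1R and INSR did not differ beyond their spread. Much of this order depends on the length used. With the length of all annotated exons, IGF2R came first with DMSO, at 8.35 CPM per kb, followed by IRS4 at 7.55, IGF1R at 4.99, IRS1 at 3.799, INSR at 3.53, GRB10 at 3.44, IGFBP3 at 1.02 and IRS2 at 0.81. With AVJ16 the order was then IGF2R at 6.36, IGF1R at 3.20, INSR at 3.06, IRS1 at 3.01, IGFBP3 at 2.32, IRS4 at 2.14, GRB10 at 1.34 and IRS2 at 0.79 CPM per kb. IGF2R led the AVJ16 order and IRS2 came last in both groups with either length, whereas the place of IRS4 moved in both groups, that of GRB10 with DMSO and that of IGFBP3 with AVJ16.

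The make-up of the IRS mRNAs differed between the groups. On the per-length scale, IRS4 gave 79.8%, 81.0% and 79.9% of the summed IRS1, IRS2 and IRS4 level in A, B and C, and 61.1%, 55.6% and 57.5% in D, E and F. IRS1 gave 16.4% ± 0.96 with DMSO and 33.3% ± 1.05 with AVJ16, and IRS2 3.41% ± 0.31 and 8.64% ± 1.74 (SD, n = 3 each). IRS4 thus remained the leading IRS mRNA in each AVJ16 library when the canonical length was used. That order depends on the length: with the length of all annotated exons, which for IRS4 includes a long unspliced model, its share was 62.1% ± 0.96 with DMSO and 35.9% ± 2.64 with AVJ16, and IRS1, at 3.01 CPM per kb, then exceeded IRS4, at 2.14, in treated cells. This alternative length was chosen after seeing the data. The ratio of IGF1R to INSR on the per-length scale was 1.44, 1.41 and 1.37 with DMSO and 1.15, 0.95 and 1.02 with AVJ16, so that the groups did not overlap.

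**Figure D3:**
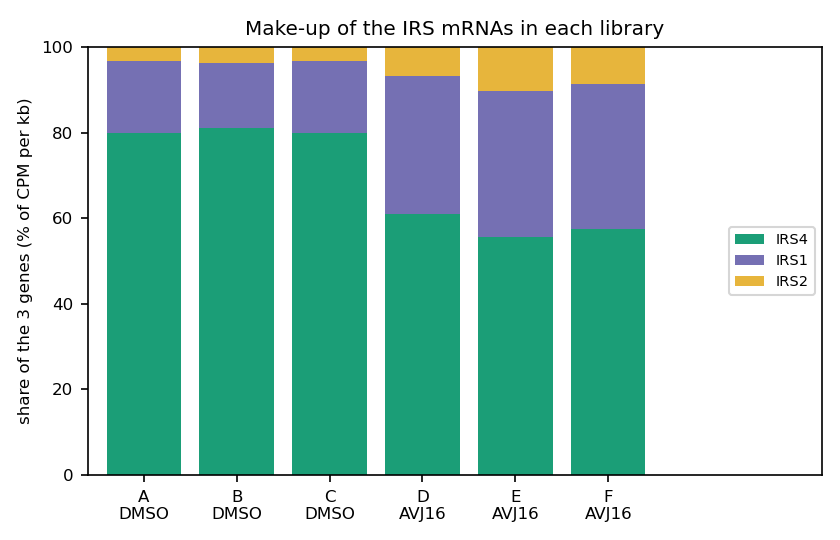
Share of IRS4, IRS1 and IRS2 in their summed level, in percent of CPM per kb of canonical transcript (y axis), in each DMSO library (A, B, C) and AVJ16 library (D, E, F). IRS4 makes up 79.8% to 81.0% of the sum in the DMSO libraries and 55.6% to 61.1% in the AVJ16 libraries.

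The promoters of IRS4 and GRB10 are shown because these genes had the lowest ratios of AVJ16 to DMSO. Sequences are the bases before the RefSeq start (GRCh38.p14), read on the strand of the gene. For IRS4 they cover chrX:108736564-108736813 on the minus strand, with GC boxes in capitals, here found as CCGCCC.
IRS4 promoter: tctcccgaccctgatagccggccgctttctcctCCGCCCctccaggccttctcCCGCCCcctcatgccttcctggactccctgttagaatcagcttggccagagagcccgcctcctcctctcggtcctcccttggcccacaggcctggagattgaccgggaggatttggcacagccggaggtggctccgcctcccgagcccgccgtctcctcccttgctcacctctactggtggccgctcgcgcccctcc
For GRB10 they cover chr7:50782911-50783146 on the minus strand, with a CCAAT box in capitals, here found as ATTGG. The 14 bases next to the start are left out because they lie in an exon of another GRB10 transcript.
GRB10 promoter: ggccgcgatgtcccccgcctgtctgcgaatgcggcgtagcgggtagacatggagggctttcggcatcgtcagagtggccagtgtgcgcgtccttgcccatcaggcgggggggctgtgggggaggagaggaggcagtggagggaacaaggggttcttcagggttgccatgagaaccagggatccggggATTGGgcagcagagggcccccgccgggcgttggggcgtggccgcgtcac
Both strands of the 250 bases before the start of each of the 8 genes were searched for the GC box GGGCGG, the CCAAT box CCAAT, the TATA box TATAAA, the E-box CACGTG and the forkhead box TGTTTAC, the last of which is bound by FOXO factors. The GC box was found in 7 of the 8, all but GRB10, beside 42.6% of 35116 promoters of the same length. The CCAAT box was found for GRB10 and IRS2, beside 32.0% of promoters. The E-box was found for IGF2R alone, with 3 matches, beside 6.34% of promoters. None of the 8 held the exact letters TATAAA or TGTTTAC, which 10.7% and 2.98% of promoters held. Other forms of these boxes, such as the letters tatata in the IGFBP3 window, were not searched for. The windows of IRS4 and GRB10 were 68.0% and 67.6% G or C, beside a median of 58.0%. They were the lowest of the 8, the others running from 76.0% for IGFBP3 to 81.2% for IGF1R. The promoters used for comparison of the motifs were not matched for G and C. RefSeq lists 5 starts for GRB10 and 2 for IRS4, and counts per gene do not say which start was used.

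On the chromosomes, IRS genes lie beside pairs of type IV collagen genes, which encode the network of basement membranes. IRS4 (chrX:108719946-108736563) lies 22.4 kb from COL4A5 and 280 kb from COL4A6. IRS2 (chr13:109752695-109786583) lies 362 kb from COL4A1 and 519 kb from COL4A2, and IRS1 (chr2:226731312-226799820) lies 203 kb from COL4A4 and 365 kb from COL4A3. All 4 type IV collagen genes tested fell, where 8.77% of all genes did. They lie in pairs and were listed with earlier results of these data known. Nothing is therefore read from this count as if the 4 were independent. COL4A6 went from 3.81, 4.19 and 3.66 CPM with DMSO to 1.01, 1.21 and 0.97 CPM with AVJ16 (log2 fold change -1.88, SE 0.18, edgeR adjusted p = 0.000938). COL4A5 fell by 1.12 (SE 0.13, adjusted p = 0.00182), COL4A1 by 1.47 (SE 0.17, adjusted p = 0.00165) and COL4A2 by 1.57 (SE 0.13, adjusted p = 0.000716) on the log2 scale. These calls held in every alternative. COL4A3 and COL4A4, at 2 to 9 counts per library, were not tested. IRS4 and its 2 neighbouring collagens were thus all lower with AVJ16, whereas IRS2 had a log2 fold change of -0.05 beside 2 collagens that fell.

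GRB10 (chr7:50590063-50793462) lies 223 kb from COBL, which encodes an actin nucleator and went from 4.43 ± 0.20 to 1.48 ± 0.29 CPM (SD, n = 3 each; log2 fold change -1.59, SE 0.18, edgeR adjusted p = 0.0017). On its other side DDC, the enzyme that makes dopamine and serotonin, had no row. IGFBP3 (chr7:45912245-45921874), which lies on the same chromosome and stood higher, has the focal adhesion gene TNS3 as its next tested neighbour, at 1353 kb, and TNS3 fell by 0.86 (SE 0.11, adjusted p = 0.0021). IGFBP1, on the other side of IGFBP3 at 18.6 kb, had no row. RHBDD1, beside IRS1 at 35.8 kb, had a log2 fold change of -0.10 (SE 0.10). INSR (chr19:7112255-7294414) lies between ZNF557, a zinc finger gene that fell by 0.59 (SE 0.16, adjusted p = 0.0359), and ARHGEF18, at -0.01 (SE 0.22). IGF1R (chr15:98648539-98964530) has the arrestin-domain gene ARRDC4 at 675 kb, which fell by 0.94 (SE 0.27, adjusted p = 0.0482). When any library but D was left out, ZNF557 and ARRDC4 no longer passed (highest adjusted p = 0.149 and 0.174), and ARRDC4 did not pass with DESeq2's size factors or upper quartile scaling either. Beside IGF2R (chr6:159969082-160113507), MAS1 was too low to be tested. Coordinates are those of GENCODE 44 (GRCh38).

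**Figure D4:**
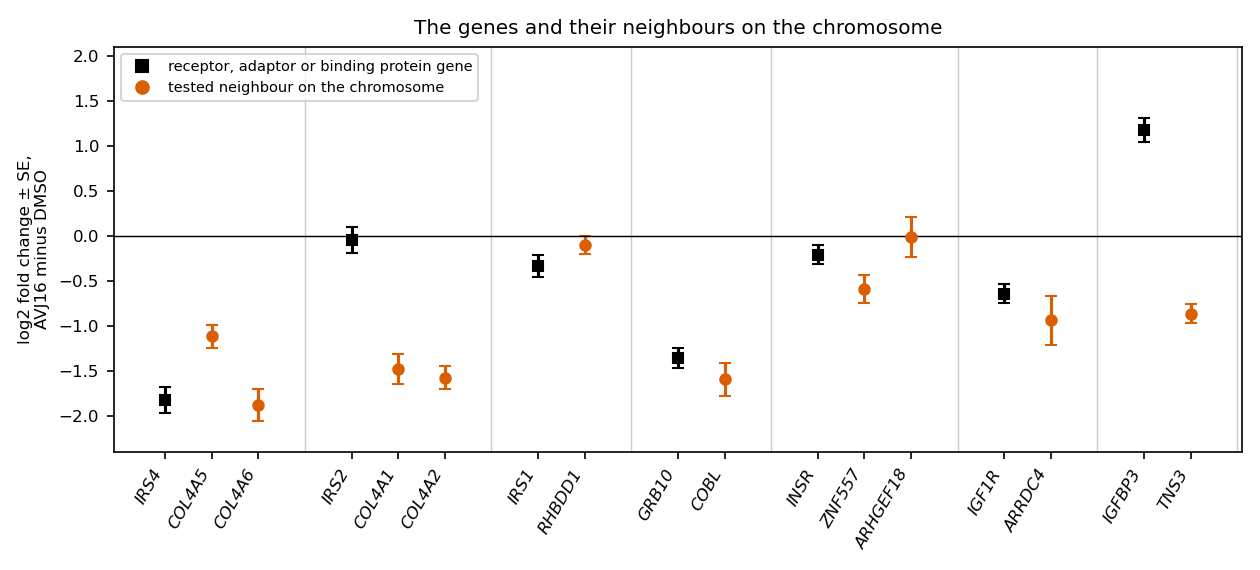
Log2 fold change with its SE, AVJ16 minus DMSO (y axis), of each insulin and IGF gene (black squares) and its tested neighbours on the same chromosome (orange circles). IRS4 (-1.82) stands with COL4A5 and COL4A6 below -1, GRB10 (-1.36) stands with COBL (-1.59), and IRS2 (-0.05) and IGFBP3 (1.18) stand apart from neighbours that fell.

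Other genes were taken from lists drawn up with earlier results of these data known, the 9 genes left out. Besides the pathway, the lists cover imprinted genes, type IV collagens and the IGF2BP paralogs. Of 147 genes in 10 lists, each counted once, 118 were tested, 15 fell, 11 rose and 92 did not pass, so 22.0% passed beside 14.6% of all genes. Over all genes, 8.77% were lower and 5.87% higher. The 4 type IV collagens tested, all lower, are among the 15. Over the 118, the median log2 fold change was -0.04, beside -0.01 over all genes.

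Among ligands and carriers, 2 of 5 tested genes fell and none rose, so 40% passed beside 14.6% of all genes. Their median log2 fold change was 0.07. INS, IGF1, IGFBP1, IGFBP7 and IGFALS were not tested. IGFBP5, an IGF-binding protein that also attaches to the matrix, went from 24.9, 24.3 and 21.8 CPM with DMSO to 11.6, 8.64 and 7.004 CPM with AVJ16 (log2 fold change -1.38, SE 0.18, edgeR adjusted p = 0.00237). IGFBP2, a binding protein often raised in tumours, fell by 0.60 (SE 0.17, adjusted p = 0.0456), but not without A, B, C, E or F (highest adjusted p = 0.164). IGFBP5 and IGFBP2 were thus lower in the same libraries in which IGFBP3 was higher. Of the proteases that cut IGFBPs and their inhibitors, 3 of 7 rose and none fell, so 42.9% passed beside 14.6% of all genes. The median was 0.17. PAPPA, PAPPA2 and ADAM12 were not tested. STC2, which inhibits the IGFBP protease PAPPA, went from 82.9, 83.2 and 74.6 CPM to 118, 130 and 134 CPM (log2 fold change 0.67, SE 0.10, adjusted p = 0.00393), and its call held in every alternative, as did that of IGFBP5. Its paralog STC1 rose by 0.71 (SE 0.13, adjusted p = 0.0083), and the protease urokinase, PLAU, by 0.89 (SE 0.17, adjusted p = 0.0109). The call of STC1 was lost without A or C and that of PLAU without A, B or C (highest adjusted p 0.053 and 0.0557). PLAU overlaps C10orf55 on the opposite strand over 31% of its exon length, and how strand was treated in counting is not stated.

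Of the other receptors listed, the cation-dependent mannose 6-phosphate receptor M6PR, which sorts lysosomal enzymes as IGF2R does, was at 155 ± 1.00 CPM with DMSO and 173 ± 7.49 CPM with AVJ16 (SD, n = 3 each; log2 fold change 0.15, SE 0.09, edgeR adjusted p = 0.281), with 30.9% of its exon length opposite PHC1. Of 26 other adaptors tested, 24 did not pass, so that 7.69% passed beside 14.6% of all genes. NCK1, an SH2 and SH3 adaptor, rose by 0.43 (SE 0.11, adjusted p = 0.0275), but not with library size alone or without A, B, C or F (highest adjusted p = 0.122). GRB14, the paralog of GRB10 that inhibits the insulin receptor, was at 6.66 ± 0.98 CPM with DMSO and 8.17 ± 1.03 CPM with AVJ16 (SD, n = 3 each; edgeR adjusted p = 0.24), and was picked after its values were seen.

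Of the genes that restrain the receptors and their signal, 2 of 19 fell and 3 rose, so 26.3% passed beside 14.6% of all genes. The median was 0.01. PTPN2, a phosphatase that dephosphorylates the insulin receptor, went from 90.6, 92.7 and 93.3 CPM to 156, 126 and 127 CPM (log2 fold change 0.56, SE 0.11, edgeR adjusted p = 0.011). TRIB3, a pseudokinase that binds AKT and is induced by stress, rose by 0.56 (SE 0.12, adjusted p = 0.0148), and SOCS2, a cytokine signalling inhibitor, by 0.45 (SE 0.11, adjusted p = 0.028). ENPP1, which binds and inhibits the insulin receptor, fell by 0.52 (SE 0.13, adjusted p = 0.0266). TRIB2, a paralog of TRIB3 named after its values were seen, fell by 1.56 (SE 0.41, adjusted p = 0.0352) from a level under 1 CPM. All 5 calls were lost without A, B or C, TRIB3 also without F, and ENPP1, SOCS2 and TRIB2 also without E or F, with adjusted p up to 0.155. The call of SOCS2 was lost with library size alone and that of TRIB2 with DESeq2.

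Of the PI3 kinase and AKT core, 2 of 18 genes fell and none rose, so 11.1% passed beside 14.6% of all genes. The other 16 did not pass, and the median was -0.06. PIK3R3, a regulatory subunit of PI3 kinase that docks on IRS proteins, went from 37.9, 33.6 and 37.5 CPM to 21.3, 23.8 and 22.6 CPM (log2 fold change -0.69, SE 0.11, edgeR adjusted p = 0.00477), and its call held in every alternative. RPTOR, the raptor subunit of mTORC1, fell by 0.34 (SE 0.09, adjusted p = 0.0381), but not without A, B, C, E or F or with no filter (highest adjusted p = 0.167). Of FOXO factors and genes that FOXO factors are known to induce, 4 of 16 fell and 1 rose, with a median of -0.19. Thus 31.2% passed, beside 14.6% of all genes. TXNIP, which limits glucose uptake, fell by 1.53 (SE 0.20, adjusted p = 0.00226), from a low mean of 2.62 CPM to 0.90 CPM. SESN1, a stress-induced inhibitor of mTORC1, fell by 0.83 (SE 0.14, adjusted p = 0.0063). Both calls held in every alternative. KLF15, a regulator of gluconeogenic genes, fell by 0.97 (SE 0.20, adjusted p = 0.0155), but not without A, B or F, and SESN3, named after its values were seen, fell by 0.64 (SE 0.16, adjusted p = 0.0335), but not without A, B, C, E or F. GABARAPL1, an autophagy gene, rose by 0.44 (SE 0.11, adjusted p = 0.0262), but not with library size alone or without A, B, C, E or F. The highest adjusted p of these 3 was 0.138.

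GRB10 and IGF2 are imprinted, expressed from the allele of a given parent in some tissues. Of 19 other imprinted genes tested, none fell, 2 rose and 17 did not pass, with a median log2 fold change of 0.12. Thus 10.5% passed, beside 14.6% of all genes. The rises were those of PEG10, a retrotransposon-derived gene, by 0.50 (SE 0.12, edgeR adjusted p = 0.0288), and of SGCE, its divergent neighbour, by 0.39 (SE 0.09, adjusted p = 0.0217), and both were lost with library size alone or without A, B, C or F (highest adjusted p = 0.138). IGF2BP1 itself stood at 266, 267 and 264 CPM with DMSO and at 240, 239 and 260 CPM with AVJ16 (log2 fold change -0.11, SE 0.09, adjusted p = 0.441). Its paralog IGF2BP2 rose by 0.60 (SE 0.14, adjusted p = 0.0202), but not without A, B, C or F (highest adjusted p = 0.0956), while the value of IGF2BP3 was 0.01 (SE 0.15). The level of IGF2BP1 mRNA is no measure of how far its protein was inhibited.

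**Figure D5:**
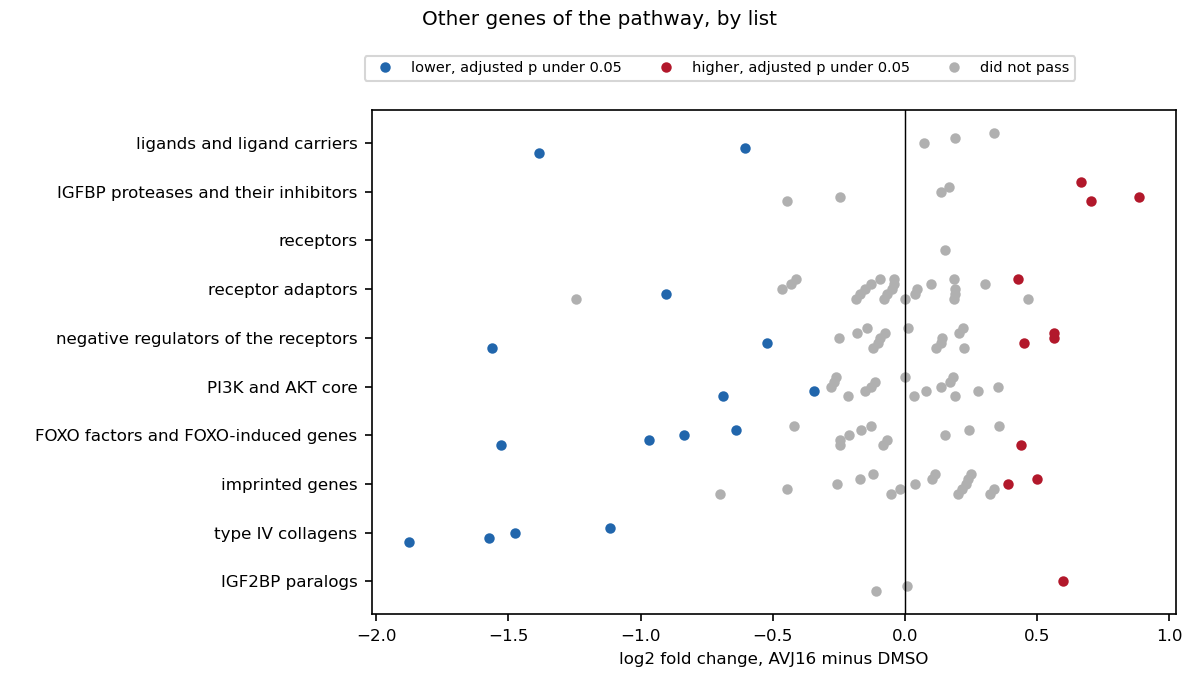
Log2 fold change, AVJ16 minus DMSO (x axis), of each tested gene of the 10 lists (1 point per gene, the 9 chosen genes left out), with genes past an edgeR adjusted p of 0.05 in blue (lower) or red (higher) and the others in grey. All 4 type IV collagens lie below -1, the IGFBP proteases and inhibitors that passed lie above 0, and 24 of the 26 adaptors are grey.

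By the Pearson correlation of log2 CPM over the 6 libraries, the genes of 5 CPM or more most like IRS4 were CDC6, a replication licensing factor, IGF1R, SCFD2, the transcription termination factor TTF2 and CHSY3, a chondroitin synthase (r = 0.997 to 0.998). Those most like GRB10 were XXYLT1, a xylosyltransferase, the lysosomal sulfatase ARSB, the glypican GPC3, the glutamate transporter SLC1A3 and the matrix glycoprotein SPARC (r = 0.998 to 0.999). The libraries form a DMSO and an AVJ16 cluster, so any gene clearly lower with AVJ16 scores high and a clearly higher gene cannot. Of 11219 genes, 495 and 417 were over 0.95 for IRS4 and GRB10. The likeness is a description, and IGF1R is the sole one of the other 7 genes to appear in either set.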

How the data were processed

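Poly(A) RNA of H1299 cells was sequenced as stranded single-end libraries. Per the labels and the methods, the authors trimmed reads with cutadapt 2.10, aligned them to GRCh38 (Ensembl release 99) with TopHat2 2.1.1, counted them per gene with HTSeq 2.01 and removed genes with a sum of counts under 10. Whether HTSeq used strand is not stated. The deposited counts were used, and 6 columns normalised by the authors with DESeq2 1.36.0 were not. Columns are named A to F, letters absent from the labels, so groups follow the condition bar of the study's heat map, and replicate numbers could not be assigned. The methods name biological repeats for experiments in general and triplicates for RNA-seq. The labels number the libraries without saying whether these were separate cultures. If they were not, the p-values measure a technical spread.

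Counts were tested with edgeR 4.0.16 (R 4.3.3; filterByExpr with minimum count 10 and total 15, TMM, robust quasi-likelihood F test, two-sided, prior count 0.125), adjusted over 16330 genes. The SE is the absolute log2 fold change divided by the square root of F. The biological coefficient of variation was 13.5%. The script was tested on simulated data. Alternatives were other scalings, no filter, DESeq2 1.42.0, voom (limma 3.58.1), a prior count of 2 and leaving out each library. The genes, lists and tests were chosen with earlier results of these data known. Text names the 9 genes, up to 4 passing genes per list by smallest p, the type IV collagens, chromosomal neighbours, the 5 genes most like IRS4 or GRB10, and IGF2BP1, with exceptions stated. Some genes under this rule are not reported here.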

Additional observations from a re-analysis of the deposited data

How the results depend on the processing

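Calls over all genes depended most on library D and on the weighting of libraries: 2390 genes passed, 7105 with voom and sample weights, and 824 to 6250 when a library was left out, the highest without D and the lowest without A. Of the listed genes, type IV collagens among them, 15 fell and 11 rose. With voom, 33 fell and 32 rose, and with library size alone 6 rose. Leaving out a library gave 8 to 31 that fell and 1 to 25 that rose, the most in both cases without D. Library size alone also turned the balance of calls over all genes to 2215 lower and 523 higher, from 1432 and 958. The log2 fold changes of IRS4, GRB10, IGF1R and IGFBP3 kept their sign in every alternative. Values that moved by more than the spread between replicates were GRB10 at -1.47, INSR at -0.32 and IGF1R at -0.75 with library size alone, INSR at -0.14 and IRS2 at 0.10 with voom, and GRB10 at -1.27 without F. Leaving out a library gave -1.40 to -1.27 for GRB10, -1.95 to -1.68 for IRS4, -0.69 to -0.57 for IGF1R, 1.10 to 1.23 for IGFBP3, -0.40 to -0.24 for IRS1, -0.52 to -0.27 for IGF2R, -0.24 to -0.18 for INSR and -0.12 to 0.06 for IRS2. The causes of these shifts were not tested. No paired analysis was possible because the columns carry no replicate numbers.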
